A study of Mus musculus with 12 samples.

Results

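The genes described here encode the voltage-gated sodium and calcium channels: their pore-forming alpha subunits and the auxiliary subunits that travel with them. They were chosen by symbol, as every protein-coding gene of the GENCODE vM21 mouse annotation whose symbol begins with Cacna, Cacnb, Cacng or Scn followed by a digit. This gave 40 genes with 287 transcripts, of 35580 genes and 22013 protein-coding genes with a transcript in the expression table. The values are TPM from RNA-Seq, which is by definition a length-corrected share of all transcripts. Library totals differed here, so the values carry a further scaling and are not plain shares. A gene's level is the sum over its transcripts.

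Hippocampi came from male C57BL/6 mice on postnatal day 70, with 3 mice in each of 4 groups. Control mice had dams given water only and were raised undisturbed. Ethanol mice had dams that could choose to drink 10% ethanol in water throughout gestation, stress mice were taken from dam and littermates for 3 h a day on postnatal days 2 to 14, and ethanol + stress mice had both exposures. The study's methods also make ethanol available before mating and after birth until postnatal day 10, which overlaps with most of the separation days. Intake by each dam is not in the labels, and pups of 1 litter could enter more than 1 group, so the 3 mice of a group are separate animals that may share dams. The 3 comparisons with control use the same 3 control libraries.

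Voltage-gated sodium channels open within a fraction of a millisecond of depolarization and carry the upstroke of the action potential. Calcium channels open next, and the calcium that enters triggers transmitter release at terminals (P/Q-, N- and R-type), feeds signals from the dendrite and soma to the nucleus (L-type) or sets bursting near rest (T-type). The alpha2delta and beta subunits bring calcium channels to the membrane, and most gamma subunits expressed in brain are TARPs, which escort AMPA-type glutamate receptors and not calcium channels.

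Several of these genes carry a pair of alternative exons, of which a transcript has one or the other. In sodium channel alpha genes the pair encodes part of the first voltage sensor, and its members are known as the neonatal and adult forms. A search of the annotation for neighbouring exons of like length that never share a transcript found 11 such pairs in 10 of the 40 genes, and 9 pairs in 8 genes had a mean of at least 1 TPM over both copies. The sequences of the Cacna1a pair are shown because its copies had nearly equal TPM, and how TPM is divided between them is given below. Capitals mark bases that differ between the copies, and the sequences come from the annotation's transcripts (GRCm38, 5′ to 3′). Cacna1a, which encodes the P/Q-type pore, has a pair late in the transcript at chr8:84614695-84614791 and chr8:84615574-84615670 on the plus strand, and they share 60 of 97 bases. The upstream copy is exon 37 of 47 in Cacna1a-201, and the downstream copy is annotated in 1 transcript, the 5-exon Cacna1a-210.
Cacna1a upstream copy: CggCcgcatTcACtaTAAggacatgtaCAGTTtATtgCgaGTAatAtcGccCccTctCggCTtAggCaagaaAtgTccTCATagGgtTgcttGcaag
Cacna1a downstream copy: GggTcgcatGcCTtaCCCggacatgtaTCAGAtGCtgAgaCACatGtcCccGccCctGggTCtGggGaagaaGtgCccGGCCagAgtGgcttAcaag

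Before the channels are compared, the libraries need a description. From the steps in the low values, each library was estimated to hold between 12040000 and 14900000 assigned read pairs, and 81.2% to 85.2% of low values lay within 0.15 of a whole number of read pairs. The totals differed between libraries and ran from 889222 to 1173650. Markers of hippocampal excitatory neurons were present in every library, with a summed level of 2644 to 2870 TPM and no listed gene absent, as the label says. Oligodendrocyte markers ran from 2824 TPM (ethanol replicate 3) to 6167 TPM (ethanol + stress replicate 2), and the 5 choroid plexus markers from 38.0 to 7202 TPM. The 5 blood markers summed to 1603 to 2022 TPM in control, 3146 to 6815 TPM with ethanol, 2593 to 3392 TPM with stress and 2454 to 6480 TPM with both exposures, so that each exposed group lay wholly above control (exact permutation test, two-sided, p = 0.1 for each, the smallest that 3 against 3 allows). The same p of 0.1 in this exact test was found for excitatory neuron markers in ethanol, all higher at 2829 to 2868 TPM against 2644 to 2773 TPM, for dentate granule cell markers in ethanol, all lower at 113 to 136 TPM against 138 to 148 TPM, and for striatum markers in stress, at 58.1 to 70.2 TPM against 47.7 to 58.0 TPM. This test was run on every marker list, among them interneurons, glia, endothelium and thalamus, in each comparison with control. Its p were not adjusted for the number of tests, and all others lay above 0.1.

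Sodium channel beta subunits modulate the pore and link it to the cytoskeleton. In control Scn2b had 109 ± 6.65 TPM (SD, n = 3) and Scn3b 92.3 ± 5.87 TPM, while Scn4b, the subunit tied to resurgent current, was at 6.43 ± 0.11 TPM.

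The sodium channel pores were dominated by 4 neuronal genes. Scn2a, the main channel of unmyelinated axons and developing initial segments, led in control with 134 ± 6.33 TPM and 52.3% of the family's sum. Scn8a, the channel of mature initial segments and nodes, had 66.3 ± 3.03 TPM, Scn1a, which is prominent in inhibitory interneurons, 36.9 ± 4.18 TPM, and Scn3a, a channel of the embryonic brain, 16.5 ± 0.57 TPM. Scn7a, an atypical sodium-sensing relative, had 1.36 ± 0.30 TPM, and the peripheral channel Scn9a 0.74 ± 0.11 TPM. The muscle channel Scn4a and the sensory neuron channels Scn10a and Scn11a stayed at or below 0.152 TPM in every library. Scn10a had no more than 2.00 estimated read pairs in any library and was listed at 0 in 5 of 12, and Scn11a was listed at 0 in 4 of 12, so that neither can be told from absence at this depth in most mice.

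Among calcium channel pores, the P/Q-, N- and R-type genes carried most of the TPM. In control they made up 61.6% of the alpha1 total, T-type genes 23.6% and L-type genes 14.7%. Over all libraries, protein-coding transcripts held 75.4% of the P/Q-, N- and R-type sum, 83.7% of the T-type sum and 73.6% of the L-type sum. Cacna1e (R-type) had 49.1 ± 2.11 TPM, Cacna1a (P/Q-type) 34.6 ± 0.66 TPM and Cacna1b (N-type) 25.9 ± 2.11 TPM in control. The T-type genes Cacna1h, Cacna1i and Cacna1g had 19.2 ± 1.19, 14.5 ± 3.21 and 8.35 ± 1.77 TPM. Of the L-type genes, Cacna1c had 17.9 ± 0.79 TPM and Cacna1d 7.36 ± 0.19 TPM. The skeletal muscle gene Cacna1s, at 0.76 ± 0.05 TPM, and the retinal gene Cacna1f, at 0.17 ± 0.19 TPM, rested on at most 16.9 and 6.98 estimated read pairs in a library.

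Auxiliary calcium channel genes were led by Cacnb3 and Cacna2d1. Cacnb3 had 86.3 ± 3.91 TPM in control, Cacnb4 62.1 ± 3.11, Cacnb1 45.7 ± 3.94 and Cacnb2 29.5 ± 0.91 TPM. Of the alpha2delta genes, Cacna2d1, the target of gabapentin, had 85.9 ± 1.92 TPM, Cacna2d3 57.0 ± 0.93, Cacna2d2 8.46 ± 0.45 and Cacna2d4 1.09 ± 0.05 TPM. Cacng8, the TARP best known from hippocampus, led the gamma genes with 37.5 ± 3.89 TPM, ahead of Cacng3 with 17.2 ± 1.45, Cacng7 with 15.2 ± 1.19, Cacng2 (stargazin) with 9.66 ± 1.44, Cacng4 with 5.32 ± 0.98 and Cacng5 with 3.74 ± 0.45 TPM. Cacng6 was at 0.64 ± 0.17 TPM, and Cacng1, the skeletal muscle gamma subunit, was listed at 0 in 7 of 12 libraries and held no more than 1.99 estimated read pairs in any. When the 40 genes were ordered by control mean, 23 of 39 neighbouring pairs overlapped in their 3 control values. Scn2a, Scn2b and Scn3b did not overlap with one another, whereas Scn3b overlapped with Cacnb3, and Cacnb3 with Cacna2d1.

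**Figure D1:**
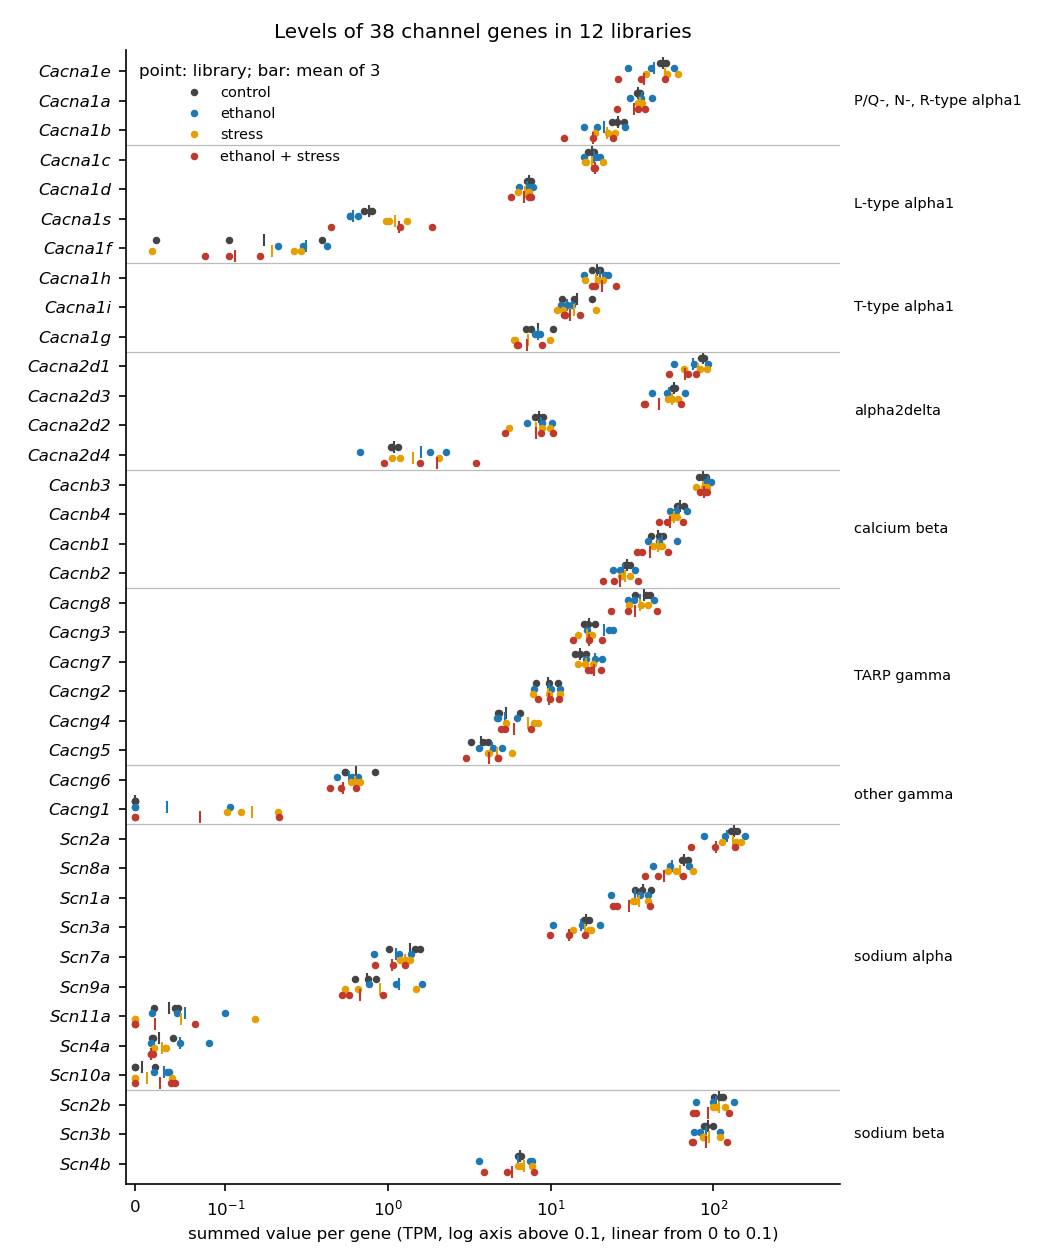
Summed TPM of 38 channel genes (horizontal axis, log scale above 0.1 TPM and linear below), by subfamily and group, with a point for each library and a bar at the mean of 3. Scn2a has the highest mean of the genes drawn, and Scn4a, Scn10a, Scn11a and Cacng1 lie near 0.

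The comparison of exposed with control mice asked whether prenatal ethanol, early stress or both left a change in these transcripts in the adult hippocampus. No channel gene passed the threshold in any comparison of gene sums (limma across all 18434 genes passing the filter, unadjusted p under 0.01). Of the 40 genes, 36 passed the filter of 0.1 TPM in at least 6 libraries, and Scn4a, Scn10a, Scn11a and Cacng1 did not. The number called was 0 of 36 for ethanol, where 0.678% of all genes were called, 0 of 36 for stress, where 0.510% were called, and 0 of 36 for ethanol + stress, where 0.971% were called. The interaction, which asks whether both exposures together differ from the sum of each alone, also had 0 of 36 called beside 0.461% of all genes. At an unadjusted p under 0.05 limma had 1 channel gene for ethanol, 0 for stress, 1 for ethanol + stress and 0 for the interaction, beside 3.64%, 2.40%, 5.37% and 2.69% of all genes. A count of 0 of 36 is close to these background shares and does not set the channels apart from other genes.

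The intervals show what could have been missed. A gene's 95% interval reached 0.45 to either side on the log2 scale at the median, from 0.18 for Cacnb3 to 0.83 for Cacna2d4. For ethanol, 35 of 36 intervals lay inside a doubling or halving, and for stress 35 and for ethanol + stress 33 did. For Scn2a the interval of the log2 fold change was -0.69 to 0.31 for ethanol, -0.53 to 0.47 for stress and -0.92 to 0.09 for ethanol + stress. In bulk tissue fewer cells of a type and less RNA per cell cannot be told apart, for these and all values below.

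The gene with the smallest p for ethanol was Cacng7, a TARP that slows AMPA receptor kinetics. It measured 16.5, 15.2 and 14.1 TPM in control, 18.6, 20.7 and 16.5 TPM with ethanol, 16.2, 14.7 and 18.2 TPM with stress and 17.0, 20.5 and 17.6 TPM with both exposures. Ethanol and control touched at 16.5 TPM, and all 3 ethanol + stress libraries lay above control. The log2 fold change was 0.28 ± 0.12 (SE; adjusted p = 0.997, limma) for ethanol and 0.26 ± 0.12 (adjusted p = 0.79, limma) for ethanol + stress.

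Cacng3, a TARP of cortical and hippocampal principal cells, came next for ethanol. It had 18.8, 17.0 and 15.9 TPM in the controls against 22.9, 16.7 and 24.1 TPM in ethanol, a log2 fold change of 0.28 ± 0.17 (SE; adjusted p = 0.997, limma). Ethanol replicate 2 lay among the controls, and without that library and the other 2 of highest total, left out after the data were seen with 2 ethanol mice remaining, the fold change was 0.44 ± 0.12 (adjusted p = 0.9999, limma). Scn9a was the third for ethanol, with 0.75, 0.63 and 0.84 TPM in the controls and 1.11, 1.61 and 0.76 TPM in ethanol, a log2 fold change of 0.39 ± 0.27 (adjusted p = 0.997, limma) that turned to -0.17 when protein-coding transcripts alone were summed.

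For stress Cacng4 and Cacng5, both at low level, were among the 3 genes of smallest p. Cacng4, a TARP expressed early in development and in glia, had 4.73, 6.46 and 4.78 TPM in the controls and 8.39, 5.27 and 7.94 TPM in stress. Stress replicate 2 lay among the controls, and the log2 fold change was 0.39 ± 0.22 (SE; adjusted p = 0.9998, limma), or -0.08 from protein-coding transcripts alone. Cacng5 had 4.12, 3.24 and 3.85 TPM in the controls and 5.81, 4.11 and 4.20 TPM in stress, a log2 fold change of 0.29 ± 0.20 (adjusted p = 0.9998, limma), with the groups overlapping by 1 library.

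In ethanol + stress mice the smallest p belonged to Cacna1b, the N-type pore. It had 25.6, 28.1 and 23.9 TPM in control, 19.4, 16.0 and 28.4 TPM with ethanol, 18.8, 25.0 and 22.4 TPM with stress and 24.0, 11.99 and 18.2 TPM with both exposures. The ethanol + stress values spread from the control range to less than its lower end, and the log2 fold change was -0.56 ± 0.24 (SE; adjusted p = 0.79, limma). Scn8a had 69.7, 64.0 and 65.2 TPM in control, 54.2, 42.6 and 71.0 TPM with ethanol, 52.7, 74.4 and 58.9 TPM with stress and 64.8, 37.8 and 45.9 TPM with both exposures. Its log2 fold change in ethanol + stress was -0.45 ± 0.21 (adjusted p = 0.79, limma). In both genes replicate 1 of ethanol + stress was close to control and replicates 2 and 3 were lower.

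The smallest p for the interaction were also far from the threshold. Scn9a had a log2 interaction of -0.60 ± 0.38 (SE), Cacna1f of -0.45 ± 0.33 and Cacng5 of -0.36 ± 0.29, each with an adjusted p of 1 in limma. Scn9a had 0.55, 1.48 and 0.66 TPM in stress and 0.92, 0.52 and 0.57 TPM in ethanol + stress, and its interaction turned to 0.12 with protein-coding transcripts alone. Cacna1f had 0.39, 0.02 and 0.11 TPM in the controls and 0.42, 0.21 and 0.30 TPM in ethanol, with 4 of 12 libraries at or under 3 estimated read pairs.

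**Figure D2:**
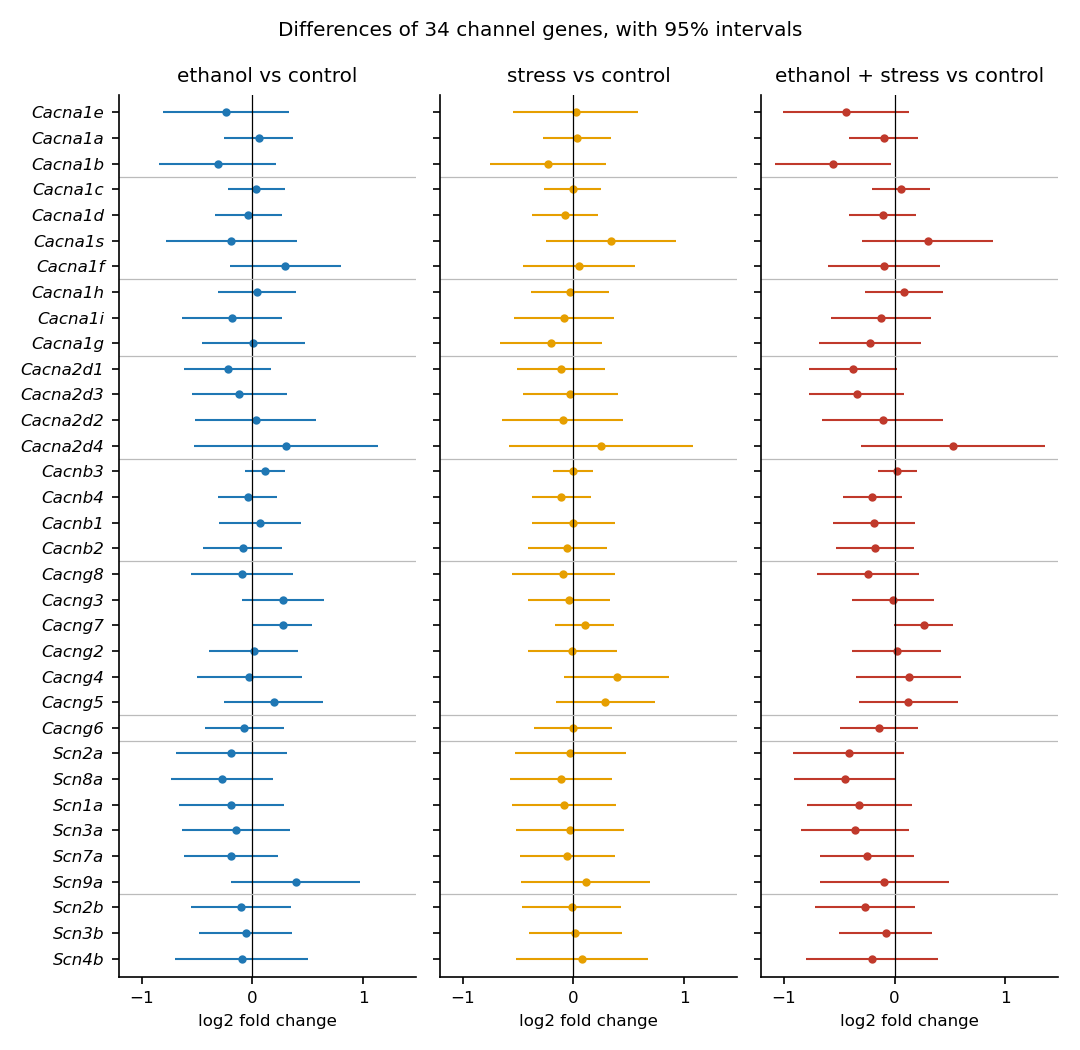
Log2 fold change (horizontal axis) of 34 channel genes in ethanol, stress and ethanol + stress against control, with 95% intervals from limma as lines and genes grouped by subfamily. Nearly every interval spans 0, and in ethanol + stress 25 of 34 points lie to the left of 0.

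By subfamily, the exposed means below differed from control by less than the SD of the exposed group, except for the alpha2delta sum in ethanol + stress, and those SDs were wide. The sodium alpha sum was 256 ± 8.41 TPM in control, 228 ± 61.5 with ethanol, 248 ± 33.1 with stress and 199 ± 58.1 with both exposures. The P/Q-, N- and R-type sum was 110 ± 2.65 TPM in control, 101 ± 25.8 with ethanol, 108 ± 14.8 with stress and 88.2 ± 23.0 with both exposures. The alpha2delta sum was 152 ± 2.40, 139 ± 29.9, 146 ± 11.6 and 123 ± 26.2 TPM in the same order. The calcium beta sum was 224 ± 5.88, 230 ± 19.7, 218 ± 11.99 and 210 ± 21.9 TPM. The TARP sum, at 88.6 ± 5.23, 94.5 ± 9.67, 89.9 ± 4.03 and 88.3 ± 16.5 TPM, and the L-type sum, at 26.2 ± 0.42, 26.5 ± 2.80, 26.1 ± 3.09 and 26.7 ± 1.55 TPM, had log2 ratios to control of at most 0.09 and 0.03, but with protein-coding transcripts alone the L-type ratio was -0.25 for ethanol and for ethanol + stress. The T-type sum was 42.1 ± 5.50, 40.9 ± 3.51, 40.1 ± 8.60 and 40.9 ± 7.26 TPM.

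Among sodium alpha genes, Scn2a held 49.6% to 55.3% of the sodium alpha sum in the 12 libraries, although that sum ran from 146 to 290 TPM. Scn8a held 23.7% to 27.9% and Scn1a 12.9% to 16.6%. Within the calcium alpha1 genes the P/Q-, N- and R-type share ran from 50.9% (ethanol + stress replicate 2) to 64.2% (ethanol replicate 3). The L-type share was highest in the first of these libraries, at 20.1%, and lowest in the second, at 13.7%.

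The main isoform of each gene, the transcript with the highest mean over the 12 libraries, gave the same count of calls. Of 40 main isoforms, 37 were annotated as protein-coding. That of Cacna1a was Cacna1a-210, a processed transcript of 549 bases at 14.8 TPM, ahead of the 7926-base Cacna1a-201 at 11.3 TPM, and those of Cacna1s and Cacna1f were also non-coding. Among 59852 transcripts tested, 0 of 35 main isoforms were called for ethanol, beside 1.26% of all transcripts, 0 for stress beside 0.914%, 0 for ethanol + stress beside 1.21% and 0 for the interaction beside 0.854% (limma, unadjusted p under 0.01). At an unadjusted p under 0.05 there were 1, 0, 3 and 0, beside 5.43%, 3.88%, 5.57% and 4.06% of all transcripts. The division of reads between isoforms is an estimate by kallisto. The median SE was 0.24 on the log2 scale for main isoforms and 0.20 for gene sums, in separate fits over different features.

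Cacng7-201 had the smallest p of the main isoforms in all 3 comparisons with control. It measured 14.5, 14.68 and 13.2 TPM in control, 17.8, 17.7 and 16.5 TPM with ethanol, 15.2, 14.7 and 17.7 TPM with stress and 16.4, 18.3 and 17.6 TPM with both exposures. All exposed libraries exceeded the highest control, stress replicate 2 by the least, at 14.7 against 14.68 TPM. The log2 fold change was 0.29 ± 0.11 (SE; adjusted p = 0.85, limma) for ethanol, 0.16 ± 0.11 (adjusted p = 1, limma) for stress and 0.29 ± 0.11 (adjusted p = 0.87, limma) for ethanol + stress.

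Cacnb3-206 and Scn1a-204 were the others at p under 0.05, both in ethanol + stress. Cacnb3-206 encodes a beta subunit and had 46.3, 61.2 and 47.4 TPM in control, 58.3, 61.1 and 62.5 TPM in ethanol and 61.2, 67.4 and 56.1 TPM in ethanol + stress. Control replicate 2 lay among the exposed libraries, and the log2 fold change was 0.24 ± 0.11 (SE; adjusted p = 0.93, limma) for ethanol and 0.26 ± 0.11 (adjusted p = 0.89, limma) for ethanol + stress. Without control replicate 2 these became 0.37 ± 0.10 (adjusted p = 0.736, limma) and 0.39 ± 0.10 (adjusted p = 0.736, limma). The gene sum of Cacnb3 did not follow in ethanol + stress, with a log2 fold change of 0.03 and an interval of -0.15 to 0.21. In ethanol the gene sum went the same way as the isoform, at 97.1, 93.0 and 89.6 TPM against 89.9, 86.9 and 82.1 TPM in control. The lowest ethanol library lay just under the highest control.

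Scn1a-204 had 18.8, 11.6 and 21.5 TPM in control, 15.7, 11.1 and 15.5 TPM in stress and 10.7, 9.94 and 13.2 TPM in ethanol + stress. Control replicate 2 again overlapped with the exposed libraries. The log2 fold change was -0.56 ± 0.24 (SE; adjusted p = 0.89, limma) for ethanol + stress, or -0.81 ± 0.21 (adjusted p = 0.736, limma) without control replicate 2, and -0.26 ± 0.24 (adjusted p = 1, limma) for stress. The second isoform, Scn1a-203, was at 9.96, 15.04 and 14.5 TPM in the controls and 17.2, 10.6 and 9.61 TPM in ethanol + stress, with no separation of the groups.

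The remaining main isoforms of small p were low or variable. Cacng3-201 had a log2 fold change of 0.36 ± 0.24 (SE; adjusted p = 0.976, limma) for ethanol and an interaction of -0.43 ± 0.34 (adjusted p = 1, limma). Cacna1s-203, a processed transcript, had a log2 fold change of 0.35 ± 0.33 (adjusted p = 1, limma) for stress. Cacng5-201 had an interaction of -1.74 ± 0.85 (adjusted p = 1, limma), with 1.64, 2.32 and 3.76 TPM in the controls and 1.65, 0.001 and 3.31 TPM in ethanol + stress, and the Cacna1a-210 interaction was -0.40 ± 0.28 (adjusted p = 1, limma). In the ethanol + stress library where Cacng5-201 was near 0, Cacng5-202 held 3.01 TPM of a gene sum of 3.02 TPM.

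The balance between the main isoform and the rest of its gene could be tested in 29 channel genes. The number called was 0 of 29 for ethanol beside 1.41% of 11715 genes, 0 for stress beside 1.08%, 0 for ethanol + stress beside 1.15% and 0 for the interaction beside 0.871% (limma, unadjusted p under 0.01). At an unadjusted p under 0.05 there were 0, 0, 1 and 0, beside 5.91%, 4.70%, 5.63% and 4.09% of all genes tested, and that 1, named after its values were seen, was Cacna1b. Cacna1b-205 made up 41.2%, 39.7% and 43.8% of the gene in control and 51.7%, 52.0% and 48.9% in ethanol + stress, with no overlap between the groups. On the log2 scale the balance differed by 0.52 ± 0.20 (SE; adjusted p = 0.82, limma). Part of the remainder was Cacna1b-206, a 308-base transcript that was estimated at 3.12, 5.51 and 0 TPM in the 3 control libraries.

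No difference in how TPM was divided between the alternative exons passed the test after adjustment, which 3 mice against 3 could not reach. For Scn2a the transcripts with the downstream copy held 55.9%, 57.1% and 57.1% of the TPM of both copies in control, 60.7%, 62.9% and 54.2% with ethanol, 56.1%, 60.3% and 60.8% with stress and 58.0%, 64.0% and 63.9% with both exposures. All 3 ethanol + stress libraries lay above control (exact permutation test, two-sided, p = 0.1, adjusted p = 0.9 over 27 comparisons), and the other groups overlapped with it. In Scn8a the downstream copy held 85.8% ± 3.46 in control and 81.5% ± 7.89 in ethanol + stress, and in Scn3a 92.3% ± 6.93 and 92.8% ± 6.43. In Cacna1a it held 45.8% ± 1.97 in control, 48.2% ± 1.49 with ethanol, 47.9% ± 7.59 with stress and 44.3% ± 2.89 with both exposures. The other comparisons at the smallest possible p were ethanol + stress against control for Cacna1e, at 93.3% ± 1.10 against 97.99% ± 1.98, and for the earlier of the Cacna1d pairs, at 69.8% ± 6.87 against 81.8% ± 3.23. These shares add whole transcripts and not reads over the exon, and several copies are annotated in short transcripts alone, such as the 549-base Cacna1a-210 and the 365-base Scn3a-203.

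**Figure D3:**
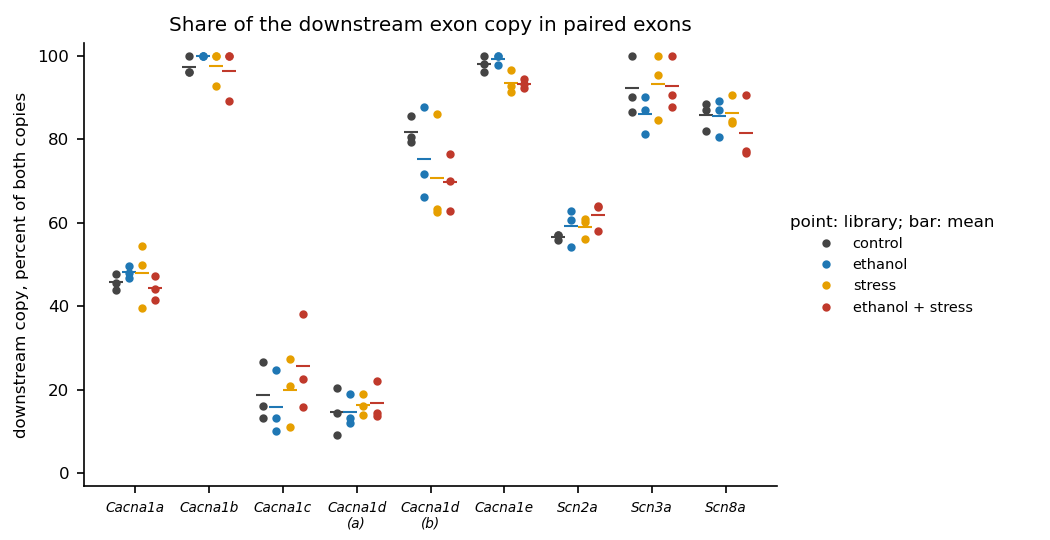
Share of TPM in transcripts that carry the downstream copy (vertical axis, percent of both copies) for the 9 exon pairs with a mean of at least 1 TPM, with a point for each library and a bar at the mean of 3, where the letters a and b mark the later and the earlier pair of Cacna1d. The downstream copy holds at least 76.6% in Scn8a and Scn3a and 54.2% to 64.0% in Scn2a, and the groups overlap in most pairs.

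The median level of the channel genes shifted from library to library. Over the 28 of them with a mean of at least 5 TPM, the median deviation from the control mean on the log2 scale was -0.27 in ethanol replicate 2, -0.42 in ethanol + stress replicate 2 and -0.28 in ethanol + stress replicate 3. It was 0.15 in ethanol replicate 3, 0.09 in stress replicate 2 and 0.09 in ethanol + stress replicate 1. In ethanol replicate 1 it was -0.14, in stress replicate 1 -0.15 and in stress replicate 3 -0.02. The 3 control libraries lay within 0.04 of 0, but they set the mean from which deviations were taken, which holds them near 0. In ethanol + stress replicate 2, 25 of 28 lay below the control mean, in stress replicate 1, 23 did, and in ethanol replicate 3, 4 did. In ethanol replicate 2 and in ethanol + stress replicate 3, 21 did. In control replicates 1, 2 and 3 the number was 9, 15 and 20. Over all 11240 genes at that level the medians stayed within 0.03 of 0.

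The 3 libraries of lowest channel median also differed by transcript length and by cell type markers. All genes of 5000 bases or longer had medians of -0.23, -0.24 and -0.16 in ethanol replicate 2 and ethanol + stress replicates 2 and 3, and genes under 1500 bases had 0.31, 0.29 and 0.25. In stress replicate 1 they had -0.14 and 0.15. The 14 channel genes of 5000 bases or longer had -0.44, -0.50 and -0.32 in these libraries and the 14 shorter ones -0.21, -0.37 and -0.24. These 3 libraries also had the highest totals, at 1173650, 1126490 and 1130571, the highest astrocyte marker sums, at 493, 507 and 502 TPM against 302 to 427 TPM in the other 9, and the most mitochondrial transcript, at 7.75%, 7.84% and 8.38% against 5.76% to 6.97%. Blood markers, at 6815, 6480 and 3977 TPM against at most 3472 TPM, and microglia markers, at 245, 258 and 286 TPM against at most 232 TPM, were also highest in them. The 3 CA1 markers were lowest in them, at 74.6, 65.7 and 74.9 TPM against 94.8 to 125 TPM in the other 9. Oligodendrocyte markers in them summed to 5354, 6167 and 6144 TPM, beside 2824 to 5670 TPM in the others. Excitatory neuron markers in them, at 2868, 2688 and 2651 TPM, lay within the 2644 to 2870 TPM of the others. Interneuron markers were at 656, 649 and 638 TPM, beside 636 to 740 TPM in the others. CA3 markers were at 122, 126 and 122 TPM, beside 119.5 to 156 TPM. Once a trend of value on transcript length was taken out of every library, the channel median in ethanol + stress was -0.12, with 26 of 36 genes lower as before, and with that trend fitted at a mean of 5 TPM or more (an alternative added once the data were known) it was -0.095 with 24 of 36 lower. The part of the marker genes and of the mitochondrial share in the channel values was not tested.

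The median log2 fold change over the 36 genes was -0.04 for ethanol, -0.01 for stress and -0.12 for ethanol + stress, where the median of all genes was 0.02, 0.00 and 0.02. With 1 library left out at a time, the ethanol + stress median ran from -0.23 without ethanol + stress replicate 1 to -0.05 without ethanol + stress replicate 2. The ethanol median ran from -0.087 without ethanol replicate 3 to 0.03 without ethanol replicate 2. The stress median ran from -0.098 without stress replicate 2 to 0.04 without stress replicate 1. The ethanol + stress median was -0.24 with every library scaled to 1 total, with 30 of 36 genes lower, where the median of all genes was -0.09. It was also -0.24 from protein-coding transcripts alone, with 29 of 34 lower. Without the 3 libraries of highest total, chosen with the data known and including ethanol + stress replicates 2 and 3, it was 0.09 with 9 of 36 lower, and that value is replicate 1 alone. Without ethanol + stress replicate 1, 4 channel genes were called in ethanol + stress beside 4.19% of all genes. These were Cacna2d3 at -0.59 ± 0.15 (SE, log2), Scn8a at -0.66 ± 0.20, Cacna1b at -0.78 ± 0.23 and Cacnb4 at -0.34 ± 0.10, each with an adjusted p of 0.235 in limma. Cacna2d3, an alpha2delta subunit known from hearing and pain circuits, had 56.2, 58.0 and 56.7 TPM in control, and in ethanol + stress replicate 1 was highest at 63.6 TPM with the others at 37.2 and 37.9 TPM.

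**Figure D4:**
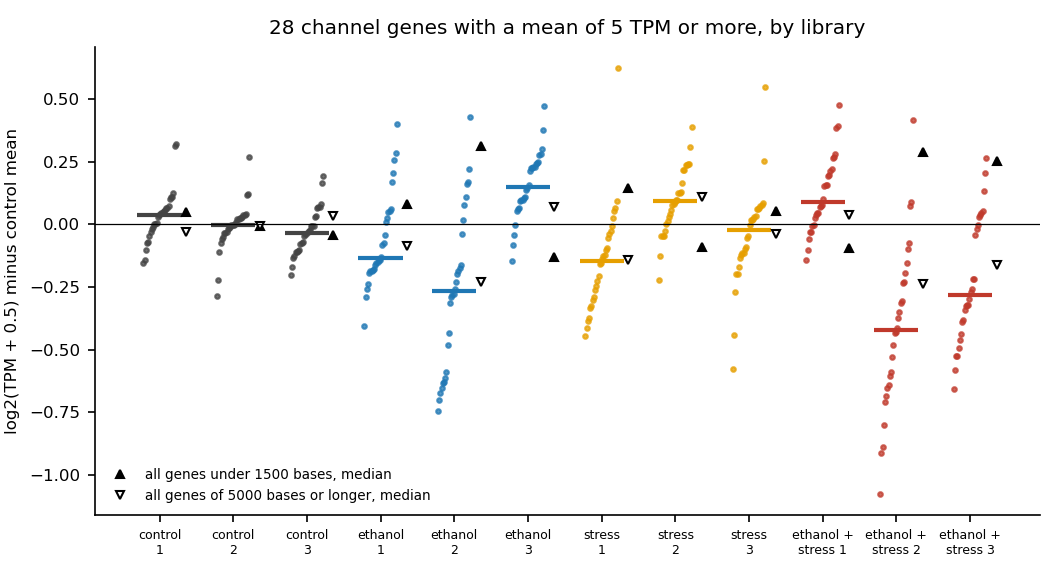
Deviation of log2(TPM + 0.5) from the control mean (vertical axis) for the 28 channel genes with a mean of at least 5 TPM in each library, with a point for each gene, a bar at their median and triangles at the medians of all short and all long genes. Ethanol replicate 2 and ethanol + stress replicates 2 and 3 lie below control with short genes above and long genes below 0. Ethanol replicate 1 and stress replicates 1 and 3 do so by less, while ethanol + stress replicate 1 lies at 0.09.

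Related cation channels, and genes whose products bind or place channels, gave no calls either. The list, called partners here, held 30 genes, among them the sodium leak channel Nalcn with its partners Unc79, Unc80 and Fam155a, the axonal anchors Ank2, Ank3 and Sptbn4, the FGF homologous factors that modulate sodium channels, the RGK proteins that silence calcium channels, and the active zone scaffolds Rims1, Rims2 and Rimbp2. Of them 29 passed the filter, Catsper1 being listed at 0 throughout, and 0 of 29 were called in each of the 4 contrasts of gene sums (limma), beside the 0.678%, 0.510%, 0.971% and 0.461% of all genes given above. At an unadjusted p under 0.05 there were 0 for ethanol, 1 for stress, 3 for ethanol + stress and 0 for the interaction, beside 3.64%, 2.40%, 5.37% and 2.69% of all genes. Among these, named after their values were seen, were Rem1 in stress at 0.88 ± 0.31 (SE, log2; adjusted p = 0.9998, limma) and Unc79 at 0.20 ± 0.08 and Stac2 at 0.33 ± 0.14 in ethanol + stress (adjusted p = 0.79 each). Rem1, an RGK protein, was low, with 0.19, 0.11 and 0.10 TPM in the controls and 0.72, 0.18 and 1.38 TPM in stress. The most abundant partner, Ank2, had 290, 302 and 320 TPM in the controls and 313, 200.9 and 254 TPM in ethanol + stress.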

How the data were processed

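RNA-Seq libraries were made for the study from hippocampal total RNA after rRNA depletion with a stranded kit. Per the submitters' processing notes, transcripts were quantified with kallisto for sleuth (mm10, software versions not given in the sources used here). The deposited signal is TPM per transcript, with library sums of 889222 to 1173650, so the values carry a further scaling that is not given in the sources used here. Of 115270 transcripts, 113580 matched GENCODE vM21, and values were summed per gene. Tests used limma 3.58.1 (R 4.3.3) on log2(value + 0.5), with features of at least 0.1 TPM in 6 of 12 libraries, 4 groups in 1 model, a mean-variance trend and Benjamini-Hochberg adjustment over all features tested. A call is an unadjusted p under 0.01. Genes named with tests were the 3 of smallest p per contrast as sums and as main isoforms, plus any called. Scripts were tested on simulated data. The members, partner and marker lists were chosen with earlier results of these data known. Read pairs were estimated from the steps of values up to 6 read pairs, in transcripts of at least 1000 bases, and cover counting error only. No sample was left out of the main fits, and the 3 mice per group limit the precision. Some genes and sequences are not reported here.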

Additional observations from a re-analysis of the deposited data

How the results depend on the processing

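Counts of called channel genes and partners were recomputed under 360 combinations of count and setting, and 346 stayed at 0. Leaving out 1 library gave 0 to 4 called in gene sums of ethanol + stress (Cacna2d3, Scn8a, Cacna1b and Cacnb4 without ethanol + stress replicate 1, beside 4.19% of all genes, and 1, Cacna1s, without ethanol + stress replicate 2, beside 0.644%), 0 to 4 in main isoforms of ethanol + stress, 0 to 1 in main isoforms of ethanol (Cacnb3, without control replicate 2, beside 1.174%), 0 to 1 in the interaction of main isoforms (Cacng5, beside 0.868%) and 0 to 1 in the balance for stress (Cacng4, without stress replicate 2, beside 0.827%). Main isoforms in ethanol + stress had 4 called without ethanol + stress replicate 1, beside 2.23% of all transcripts, and 2 without control replicate 2, beside 1.18%. For partners the range was 0 to 1 for ethanol (Stac2, without ethanol replicate 3, beside 0.918%) and 0 to 1 for stress (Rem1, without stress replicate 2, beside 0.484%). Summing protein-coding transcripts alone gave 1 partner for stress (Rem1, beside 0.342%) and 1 for the interaction (Stac, beside 0.428%), and leaving out the 3 libraries of highest total, added after the data were seen, gave 1 channel gene for ethanol (Cacng3, beside 0.771%), with 1 ethanol + stress library remaining. That setting turned the channel median from -0.04 to 0.03 for ethanol and from -0.12 to 0.09 for ethanol + stress. The same setting of protein-coding transcripts turned the log2 fold change of Cacng4 for stress to -0.0816 and of Scn9a for ethanol to -0.17, turned the Scn9a interaction to 0.12, and moved the log2 ratio of the L-type sum to control from 0.02 to -0.25 for ethanol and from 0.03 to -0.25 for ethanol + stress. Scaling to 1 total moved the ethanol + stress ratio to -0.10 for L-type and from -0.09 to -0.21 for calcium beta genes, and it moved the ethanol + stress median of all genes from 0.02 to -0.09 and that of the channels from -0.12 to -0.24 (ethanol, from -0.04 to -0.11). The cause was not tested.

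The replicate number as a block called 1 main isoform in ethanol + stress (Scn1a-204, -0.56, adjusted p = 0.815 in limma, beside 1.166% of all transcripts) and 1 partner for stress (Rem1, beside 0.510% of all genes). The block changed no other count of calls, but some counts at p under 0.05 moved. Deviations of same-numbered libraries correlated at -0.17 to 0.16, over 0.1 in 1 of 18 pairs, and 2 of 12 libraries correlated best with their own number, so the numbers are not shown to pair the mice.

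Depth limits Cacna1f, Cacng1, Scn4a, Scn10a and Scn11a, which had 3 or fewer estimated read pairs in 4, 12, 11, 12 and 10 of 12 libraries.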
